A study of Homo sapiens with 9 samples.

Results

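The pro-apoptotic BH3-only genes BCL2L11 (BIM), BBC3 (PUMA), PMAIP1 (NOXA), BID, BAD, BIK, HRK and BMF, together with the effector genes BAX and BAK1, were examined in B-cell lymphoma cells that were made to express mutant BCL10. They were taken by symbol from a table of read counts, and all 10 symbols were found among its 60656 genes. RIVA cells are a long-established line from an ABC (activated B-cell) type of diffuse large B-cell lymphoma. The cells carried a puromycin-selected, doxycycline-inducible lentiviral plvx-Tetone construct that held a truncated BCL10 (S136X), a BCL10 with a missense change in the CARD domain (R58Q) or no insert (vector). RNA was sequenced from 3 libraries of each group after 24 h of doxycycline, which the treatment protocol gives at 200 ng/mL (the sample characteristics write the same number per µL). All groups received doxycycline and kept their own BCL10 gene. The control held no insert, so the comparison with vector covers the mutation and the added BCL10 together.

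BH3-only proteins start the mitochondrial pathway of apoptosis. They bind pro-survival proteins such as BCL2, BCL-XL, MCL1 and BFL1 through a short helix, the BH3 domain, and some of them, BIM and BID above all, can also activate BAX and BAK directly. Active BAX and BAK open the outer mitochondrial membrane and release cytochrome c. In lymphocytes BIM is a main brake on survival, and drugs such as venetoclax act as BH3 mimetics. Several of these proteins are controlled after translation (BID by cleavage, BAD by phosphorylation), which RNA counts do not measure.

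What the 10 genes share is the BH3 core, and its coding sequence is shown because the family is defined by it. In each gene's GENCODE 29 coding transcripts the core was found as a leucine codon, 2 codons of any kind, a codon for a hydrophobic residue, a codon for a small residue and an aspartate codon. Capitals mark the leucine codon at the start and the aspartate codon at the end, and each sequence is read 5′ to 3′.
BCL2L11: TTGcggcgtattggaGAC
BBC3: CTGcggcggatggcgGAC
PMAIP1: CTCaggagatttggaGAC
BID: CTCgcccaggtcgggGAC
BAD: CTCcggaggatgagtGAC
BIK: CTGgcctgcatcgggGAC
HRK: CTCaaggcgctaggcGAC
BMF: CTTcagtgcattgcaGAC
BAX: CTCaagcgcatcgggGAC
BAK1: CTCgccatcatcgggGAC

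The aspartate codon was GAC in all 10 genes, while the leucine codon was CTC in 6, CTG in 2, TTG in 1 and CTT in 1. Only 5 of the 18 bases were the same in every gene. The search pattern itself fixes all of these but the last base of the aspartate codon. Not every transcript of a gene carried the core. The core shown was found in 7 of 14 coding transcripts of BCL2L11, 4 of 11 of BID, 4 of 8 of BMF and 1 of 2 of PMAIP1. It was found in 2 of 4 of BBC3, 4 of 6 of BAD and 4 of 6 of BAX. BCL2L11 had 2 different matches, of which only 1 is counted and shown. BIK and HRK had 1 coding transcript each, with the core, and all 3 of BAK1 carried it. Counts per gene add up the transcripts, so forms with and without the BH3 core cannot be told apart here.

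Library depth and labels were checked first. Total counts were 28047713 to 33122267 per library. BCL10 was counted 885 to 1268 times in the vector libraries, 9838 to 14293 times in S136X and 10117 to 10596 times in R58Q, so every mutant library had the induced gene. The names of the deposited columns carry a later date for all R58Q libraries than for the others, and date and R58Q cannot be told apart, whereas vector and S136X share a date. All 6 B-cell markers had at least 1392 counts in every library, beside at most 9 for a T-cell marker and 12 for a monocyte marker. The summed B-cell markers were 2682 to 3060.2 CPM in vector libraries, 2495 to 3064 CPM with S136X and 2345 to 2817 CPM with R58Q. Their median log2 fold change was -0.19 with S136X and -0.33 with R58Q, with PAX5 the 1 of 6 fitted higher. With no fold minimum CD79B fell with S136X (log2 fold change -0.39, adjusted p = 0.0361, edgeR) and CD79A with R58Q (-0.35, adjusted p = 0.0466, edgeR), and their part in the results below was not tested. Of the 3 fibroblast markers, COL1A1 rose in both mutants (mean 3.86 CPM without a mutant, 12.1 CPM with S136X and 13.2 CPM with R58Q) while DCN had at most 18 counts. COL1A2 went the other way, from 3.18 CPM to 2.16 and 1.35 CPM, with log2 fold changes of -0.56 and -1.24 that did not pass. The summed fibroblast markers were 5.71 to 8.04 CPM in vector libraries, 12.0 to 17.6 CPM with S136X and 12.6 to 18.1 CPM with R58Q, and the part of these markers was not tested either. The summed epithelial markers were 43.0 to 54.4 CPM in vector libraries, 36.4 to 59.5 CPM with S136X and 37.7 to 59.4 CPM with R58Q, most of it EPCAM, a surface protein of epithelia that RIVA cells also expressed in every group.

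How much of each gene did the cells express without a mutant? CPM divided by exon length (CPM per kb) allows genes to be compared. PMAIP1 stood far above the rest in the vector libraries, at 263.8 ± 7.85 CPM per kb (SD, n = 3), higher than 99.4% of the 12242 protein-coding genes tested. BMF followed at 54.0 ± 3.54 and BCL2L11 at 47.0 ± 1.66. BAX, at 29.7 ± 2.07, came next and stood apart from both neighbours. BID (17.1 ± 0.371), BAK1 (16.5 ± 1.28) and BAD (15.01 ± 1.62) formed a middle group in which BID and BAK1, and BAK1 and BAD, overlapped between libraries. HRK (7.53 ± 1.41) and BIK (5.82 ± 1.66) overlapped in turn. BBC3 was lowest at 2.88 ± 0.260, above 34.9% of coding genes. BCL2L11 and BID, a pair chosen after the values were seen, were also set against each other in all groups. Their ratio per kb was 2.598 to 2.84 in the vector libraries, 0.971 to 1.27 with S136X and 1.09 to 1.37 with R58Q. The lower ratio in the mutants repeats the changes of the 2 genes given below. This ratio depends on the lengths used, and per kb of the longest transcript it was 1.86 to 2.03, 0.694 to 0.907 and 0.780 to 0.975.

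**Figure D1:**
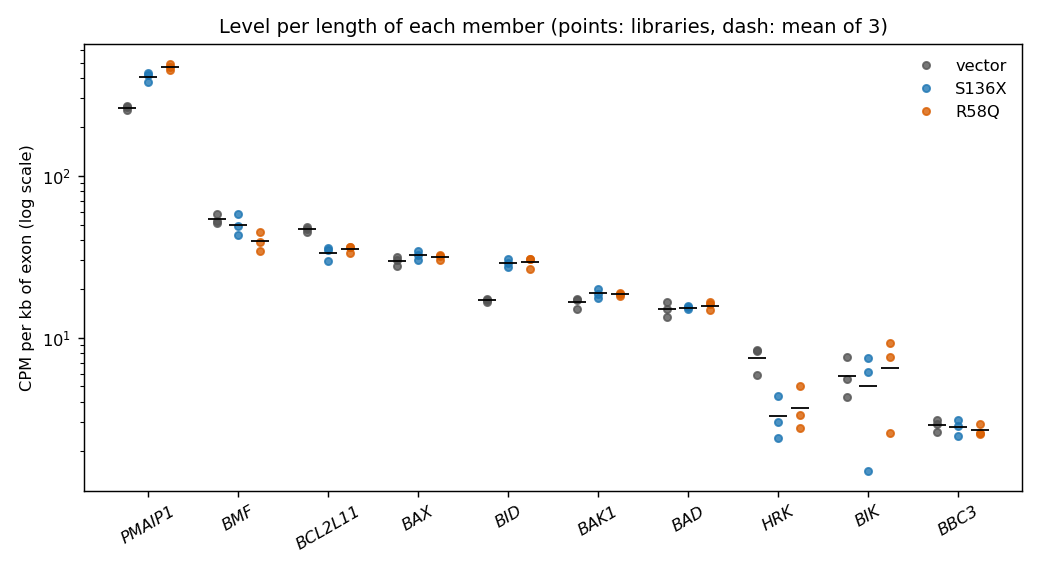
Level of each gene as CPM per kb of exon (log axis), ordered by the vector mean; points are libraries (grey vector, blue S136X, orange R58Q) and the dash is the mean of 3. PMAIP1 lies far above all others, at 263.8 CPM per kb in vector and 468.7 in R58Q, and BBC3 is lowest in vector at 2.88.

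Which of these genes changed with S136X? PMAIP1 and BID rose and HRK fell by at least 1.5-fold, and BCL2L11 fell by less. With a minimum of 1.5-fold and an adjusted p below 0.05, 3 of the 10 members passed, beside 3.87% of the 15530 genes tested. Of these 2 were higher (2.05% of all genes) and 1 was lower (1.82%). With no fold minimum 4 members passed, beside 10.1% of all genes. The members' median log2 fold change was -0.01, beside -0.02 over all genes. All p-values below come from the quasi-likelihood test of edgeR, adjusted by Benjamini-Hochberg over all genes tested.

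Which changed with R58Q? PMAIP1, BID and HRK again passed with the fold minimum, 3 of 10 beside 7.63% of 15435 genes, with 2 higher (4.09%) and 1 lower (3.54%). BCL2L11 and BMF fell by less than 1.5-fold, so that 5 members passed with no fold minimum, beside 21% of all genes. The members' median log2 fold change was 0.08, beside -0.03 over all genes. Both comparisons use the same vector libraries and are therefore not independent of each other. Bulk RNA cannot tell fewer cells expressing a gene from less RNA per cell.

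**Figure D2:**
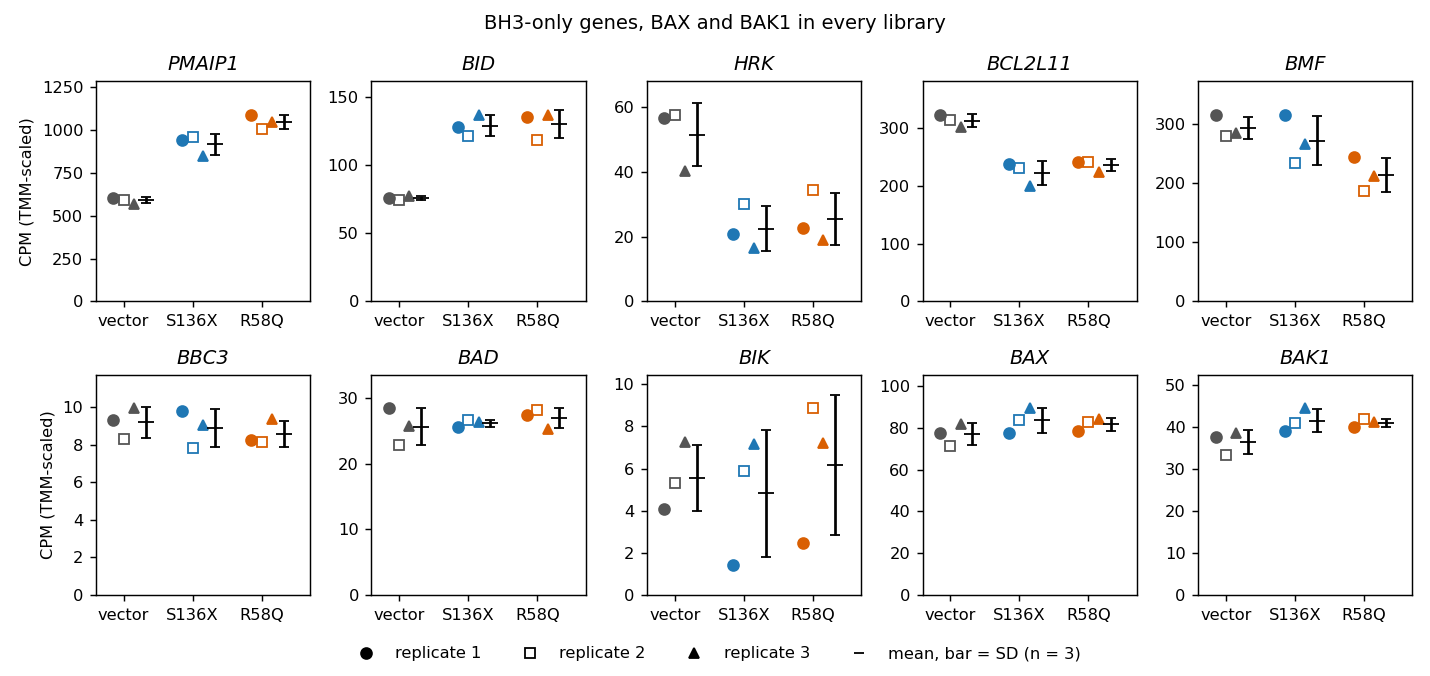
CPM of each gene in every library (symbols: replicate numbers; black dash and bar: mean and SD, n = 3; each axis starts at 0). PMAIP1 and BID are higher in all 6 mutant libraries than in any vector library, HRK and BCL2L11 are lower in all 6, and BIK is lowest in replicate 1 of every group.

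PMAIP1 encodes NOXA, a BH3-only protein that binds mainly MCL1 and BFL1 and is a textbook p53 target. It lies on the plus strand at chr18:59899996-59904305 (hg38). Its level was 606, 592 and 571 CPM in vector replicates 1, 2 and 3, 939.5, 962 and 848 CPM in S136X, and 1090.2, 1006 and 1046 CPM in R58Q. The 3 groups did not overlap: every S136X library was above every vector library, and every R58Q library was above every S136X library. With S136X it rose 1.55-fold (log2 fold change 0.64 ± 0.070 SE, adjusted p = 0.00146, edgeR). With R58Q it rose 1.77-fold (log2 fold change 0.83 ± 0.064 SE, adjusted p = 0.000146, edgeR). Scaling by total counts alone put the S136X change at 0.58 on the log2 scale, just under 1.5-fold, with an adjusted p of 0.00107 (edgeR; 4.94e-14 to 0.0134 over 15 alternatives). PMAIP1 made up 57.4% ± 0.979 (SD, n = 3) of the summed CPM per kb of the 10 genes without a mutant, 68.3% ± 1.83 with S136X and 71.9% ± 0.633 with R58Q.

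BID, which caspase-8 cleaves to link death receptors to mitochondria, is encoded on the minus strand at chr22:17734138-17774770. It was at 76.0, 74.1 and 77.4 CPM in vector replicates 1, 2 and 3, 128, 122 and 137 CPM in S136X, and 135, 118 and 137 CPM in R58Q. The mutant libraries all lay above the vector libraries, and the mutants overlapped each other. The rise was 1.70-fold with S136X (log2 fold change 0.76 ± 0.063 SE, adjusted p = 0.00034, edgeR) and 1.71-fold with R58Q (0.78 ± 0.070, adjusted p = 0.000338, edgeR). PMAIP1 and BID passed the fold and p thresholds in all 6 fits that left out 1 library, in both comparisons.

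HRK (Harakiri), a BH3-only protein best known from neurons, is encoded on the minus strand at chr12:116856144-116881441. It was at 56.6, 57.7 and 40.4 CPM in vector replicates 1, 2 and 3, 20.7, 30.1 and 16.6 CPM in S136X, and 22.7, 34.4 and 18.9 CPM in R58Q. Every mutant library was below every vector library, although replicate 3 was the lowest and replicate 2 the highest in each group. HRK fell 2.29-fold with S136X (log2 fold change -1.20 ± 0.213 SE, adjusted p = 0.0110, edgeR) and 2.04-fold with R58Q (-1.03 ± 0.219, adjusted p = 0.0144, edgeR). Both calls were lost without vector replicate 2, at adjusted p = 0.0583 and 0.0657 (edgeR), with log2 fold changes of -1.11 and -0.94. Over 15 alternatives adjusted p was 8.30e-10 to 0.0583 and 9.53e-07 to 0.0657. With the replicate number as a block it was 2.22e-05 and 8.52e-05 (edgeR), with log2 fold changes of -1.22 and -1.05.

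BCL2L11 encodes BIM, which binds all pro-survival family members, and lies on the plus strand at chr2:111119378-111168445. Its level was 323, 314 and 301 CPM in vector replicates 1, 2 and 3, 237, 231 and 199 CPM in S136X, and 241.2, 241.4 and 223 CPM in R58Q. All mutant libraries were below all vector libraries. The fall was 1.41-fold with S136X (log2 fold change -0.49 ± 0.077 SE, adjusted p = 0.0065, edgeR) and 1.33-fold with R58Q (-0.41 ± 0.061, adjusted p = 0.00326, edgeR), under the fold minimum in each. It passed the p threshold in all 6 fits that left out 1 library, in both comparisons. BCL2L11 shares 727 exon bases with MIR4435-2HG on the other strand, which had 69 to 143 counts.

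BIM and BID, the members best known as direct activators of BAX and BAK, moved in opposite directions. Their summed level, a sum chosen after the values were seen, was 64.1 ± 1.499 (SD, n = 3) CPM per kb without a mutant, 62.4 ± 1.84 with S136X and 64.6 ± 1.95 with R58Q. These sums overlapped between groups. They depend on the lengths used: per kb of the longest transcript they were 90.2 ± 1.85, 94.1 ± 2.08 and 97.1 ± 3.47, and the vector libraries (88.6 to 92.2) lay below those of S136X (92.9 to 96.5) and R58Q (93.5 to 100.4).

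BMF, a BH3-only protein that binds the dynein light chain of myosin motors, is encoded on the minus strand at chr15:40087890-40108892. It was at 316, 280.0 and 286 CPM in vector replicates 1, 2 and 3, 316, 234 and 266 CPM in S136X, and 245, 187 and 212 CPM in R58Q. The R58Q libraries were all below the vector libraries, whereas the S136X libraries overlapped both groups. BMF fell 1.37-fold with R58Q (log2 fold change -0.46 ± 0.1004 SE, adjusted p = 0.0160, edgeR), and passed in 4 of 6 fits that left out 1 library. Without vector replicate 2 the adjusted p was 0.0510 and without R58Q replicate 3 it was 0.0572 (edgeR; 0.000233 to 0.0572 over 15 alternatives), with log2 fold changes of -0.49 and -0.45. With S136X the log2 fold change was -0.11 (95% interval -0.35 to 0.13, adjusted p = 0.554, edgeR).

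BBC3, BAD and BIK did not pass in either comparison. BBC3 (PUMA), like PMAIP1 a p53 target, was at 8.28 to 9.92 CPM in vector libraries, 7.81 to 9.81 CPM with S136X and 8.12 to 9.36 CPM with R58Q. Its log2 fold change was -0.05 with S136X (95% interval -0.34 to 0.25) and -0.10 with R58Q (-0.37 to 0.17). BAD, a BH3-only protein held by 14-3-3 proteins when phosphorylated, was at 22.9 to 28.4 CPM in vector libraries, 25.6 to 26.6 CPM with S136X and 25.2 to 28.2 CPM with R58Q. Its log2 fold change was 0.03 (-0.18 to 0.24) and 0.07 (-0.15 to 0.29). The groups overlapped for both genes, and their intervals left out a 1.5-fold change in either direction. BAD shares 404 exon bases with GPR137 on the other strand, which had 634 to 726 counts, and whether the counting used strand is not given in the sources used here.

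BIK, an endoplasmic reticulum BH3-only protein, varied widely between libraries of one group. It was counted 138, 174 and 246 times in vector replicates 1, 2 and 3, 42, 190 and 204 times in S136X, and 73, 265 and 236 times in R58Q. Replicate 1 was the lowest in each group and the groups overlapped. The log2 fold change was -0.20 with S136X (95% interval -1.26 to 0.86) and 0.15 with R58Q (-0.78 to 1.09), which leaves room for more than a 1.5-fold change both ways.

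The effectors followed neither pattern. BAX was at 77.7, 71.3 and 81.9 CPM in vector replicates 1, 2 and 3, 77.6, 83.7 and 89.3 CPM in S136X, and 78.4, 82.6 and 84.1 CPM in R58Q, and the groups overlapped. BAK1 was at 37.7, 33.3 and 38.6 CPM in vector, 39.1, 41.1 and 44.5 CPM in S136X, and 40.1, 42.0 and 41.1 CPM in R58Q. All BAK1 mutant libraries were above all vector libraries, but the gene did not pass: the log2 fold change was 0.18 with S136X (95% interval -0.004 to 0.37, adjusted p = 0.195, edgeR) and 0.17 with R58Q (-0.0005 to 0.33, adjusted p = 0.139, edgeR). For BAX it was 0.12 (-0.05 to 0.29) and 0.08 (-0.07 to 0.24). These intervals left out a 1.5-fold change. Of the 31-base words of the longest BAK1 transcript 17% also occur in other genes, most in the pseudogene BAK1P1, and of those of BAX 3.24%. For HRK it was 3.18%, spread over 2635 other genes.

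Over the members, 5 had libraries that did not overlap between vector and S136X (BAK1 besides the 4 past the test), beside 31.3% of all genes. Between vector and R58Q it was 6, with BMF, beside 40.5%.

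**Figure D3:**
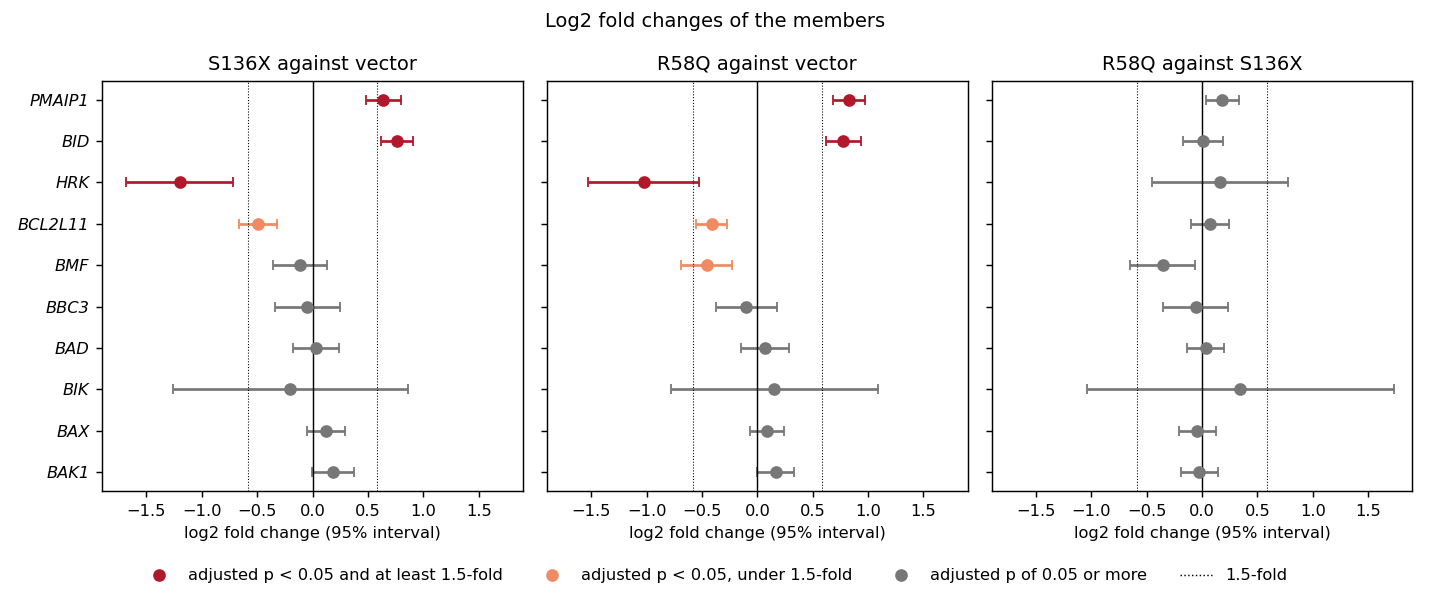
Log2 fold change with its 95% interval (not adjusted for the number of genes) for each gene in the 3 comparisons; red, adjusted p under 0.05 and at least 1.5-fold; orange, adjusted p under 0.05 only; grey, neither; dotted lines, 1.5-fold. PMAIP1 and BID lie to the right and HRK to the left against vector, and every gene is grey between the mutants.

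Did the mutants differ from each other? When R58Q was set directly against S136X, 0 of 10 members passed with the fold minimum, beside 0.434% of 15195 genes, and 0 with no fold minimum, beside 0.533% (edgeR). DESeq2 also called 0, and 2 members had an unadjusted p under 0.05 in edgeR. One was PMAIP1, higher in R58Q by 0.18 on the log2 scale (95% interval 0.04 to 0.33, adjusted p = 0.336, edgeR), the 1 member whose libraries did not overlap, beside 17.2% of all genes. The other was BMF, with a log2 fold change of -0.35 (-0.65 to -0.06, adjusted p = 0.353, edgeR) and overlapping libraries. With the replicate number as a block, both passed the p threshold (PMAIP1 adjusted p = 0.00978, BMF adjusted p = 4.36e-06, edgeR), beside 14.6% of all genes. Neither reached 1.5-fold. All R58Q libraries carry the later column date, so date and mutant cannot be told apart here, with or without the block. Over the 15 alternatives, adjusted p was 0.00978 to 0.596 for PMAIP1 and 4.36e-06 to 0.669 for BMF. For BID the difference was 0.01 (-0.18 to 0.19), for BCL2L11 0.07 (-0.10 to 0.24) and for HRK 0.17 (-0.45 to 0.78).

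Libraries with the same replicate number moved together in several members. BMF was highest in replicate 1 and lowest in replicate 2 of every group, and BID lowest in replicate 2 and highest in replicate 3. BCL2L11 was lowest in replicate 3 and BIK in replicate 1. In all, 7 of the 10 genes had the same number highest or lowest in all 3 groups. The share over all genes was not counted, so this is not shown to be particular to the members. The deviation from the group mean reached -1.42 on the log2 scale for BIK and 0.49 for HRK, and stayed between -0.11 and 0.07 for PMAIP1.

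**Figure D4:**
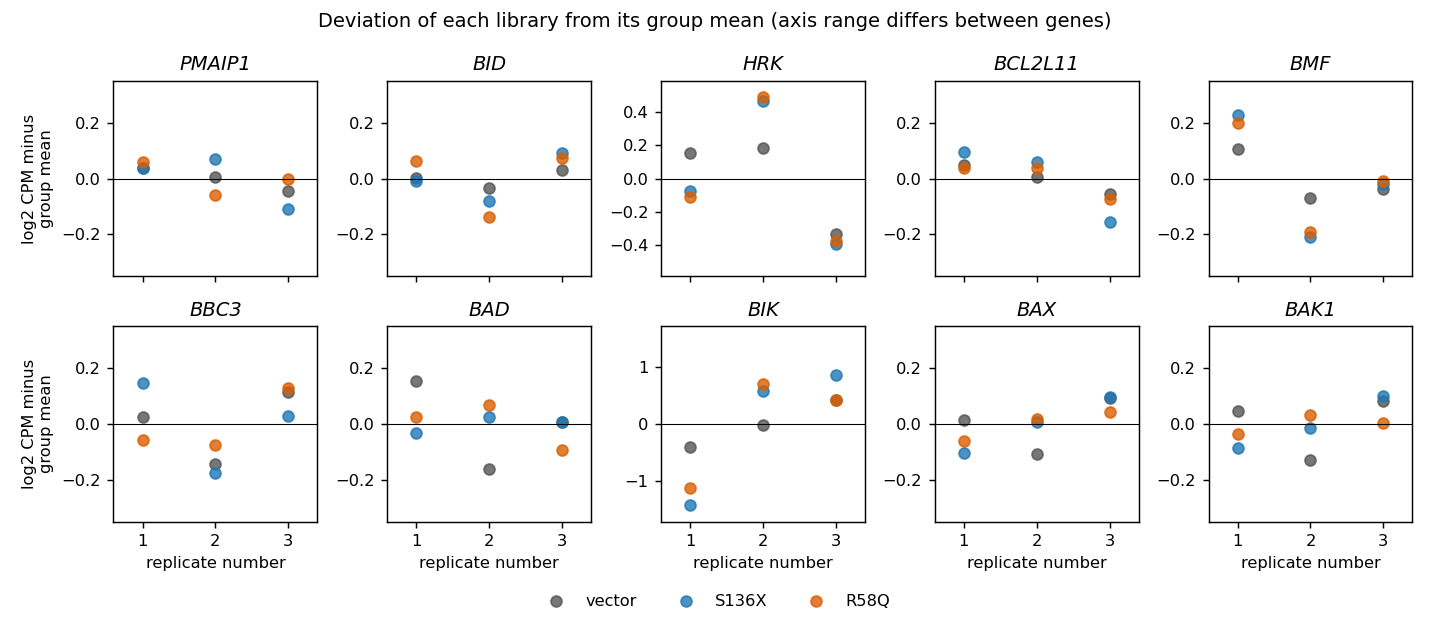
Log2 CPM minus the group mean against the replicate number for each gene (grey vector, blue S136X, orange R58Q; the vertical range differs between genes). In HRK replicate 3 is lowest and replicate 2 highest in every group, and in BIK replicate 1 is lowest, down to -1.42.

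The proteins that the BH3 domain binds were counted as a list. Of 6 pro-survival genes 2 rose at least 1.5-fold in both mutants (2.05% of all genes higher with S136X, 4.09% with R58Q) and 0 fell. With no fold minimum 3 rose in each, since BCL2 was higher by 0.43 and 0.51 on the log2 scale (adjusted p = 0.00675 and 0.00569, edgeR). Of all genes tested, 937 of 15530 rose with no fold minimum with S136X and 1891 of 15435 with R58Q. BCL2A1 (BFL1), a partner of NOXA and BIM, rose by 1.67 on the log2 scale with S136X and 2.43 with R58Q (adjusted p = 0.000312 and 4.6e-05, edgeR), and BCL2L1 (BCL-XL) by 0.83 and 1.35 (adjusted p = 0.000278 and 4.6e-05, edgeR). MCL1, the other main partner of NOXA, had log2 fold changes of -0.16 ± 0.077 SE and 0.03 ± 0.076 SE and did not pass.

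Of 7 other BCL2 family genes tested, 0 passed with the fold minimum in either comparison, and 1, BCL2L13, was higher in each with no fold minimum (log2 fold changes 0.36 and 0.27). Of 15 binding or handling partners (14-3-3 proteins, dynein light chains, VDAC2 and others) 0 passed with the fold minimum. With none set, VDAC2 and YWHAG were higher with each mutant and DYNLL1 with R58Q. The numbers higher over all genes were then 937 of 15530 with S136X and 1891 of 15435 with R58Q. Median log2 fold changes were 0.63 and 0.81 for the pro-survival genes, 0.12 and 0.27 for other family genes and 0.07 and 0.12 for partners, in the order S136X and R58Q, beside -0.02 and -0.03 over all genes.

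The regulators known to act on these genes were mixed as well. Of 12 transcription factors, 1 rose and 0 fell with S136X, while 2 rose and 1 fell with R58Q, beside 2.05% of all genes higher and 1.82% lower with S136X, and 4.09% and 3.54% with R58Q. With no fold minimum it was 1 and 0 with S136X, and 3 and 3 with R58Q. Over all genes it was then 937 and 637 of 15530 with S136X, and 1891 and 1352 of 15435 with R58Q. The 3 that fell with R58Q were all the FOXO genes of the list, FOXO1, FOXO3 and FOXO4. TP73, JUN and ATF4 were the 3 that rose. FOXO1 and FOXO3 had log2 fold changes of -0.48 each with R58Q (adjusted p = 0.0117 and 0.0493, edgeR). With S136X theirs were -0.32 and -0.37 and did not pass. JUN rose by 0.88 and FOXO4 fell by 0.68 on the log2 scale with R58Q. With S136X their log2 fold changes were 0.43 and -0.60 and did not pass, and neither passed the direct test between the mutants (adjusted p = 0.427 and 0.958, edgeR). TP73, a p53 relative, rose in both, by 1.53 and 1.27 on the log2 scale (adjusted p = 0.0161 and 0.0219, edgeR). Of 20 p53 target genes outside the members 3 rose and 3 fell with S136X, and 3 rose and 2 fell with R58Q, against the same shares of all genes. With no fold minimum it was 3 and 4 with S136X, and 5 and 4 with R58Q, against the same numbers of all genes as for the factors. Those that moved in both went both ways: the death receptor gene FAS rose by 0.998 and 1.70 on the log2 scale, the nuclease gene AEN by 1.15 and 1.47 and the kinase gene PLK3 by 1.149 and 0.87, whereas TP53INP1 fell by 0.81 and 0.74 and the anti-proliferative gene BTG2 by 0.68 and 0.79. DDB2, a DNA repair gene, fell by 0.68 with S136X and, under the fold minimum, by 0.50 with R58Q (adjusted p = 0.00146 and 0.00403, edgeR). Median log2 fold changes were -0.02 and 0.05 for the factors and -0.03 and -0.03 for the p53 targets.

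Over the 9 libraries, the genes whose log2 CPM followed PMAIP1 most closely were ZSWIM4 and RHOF (Pearson r = 0.99 each). ANKRD33B and POLR1E (r = 0.996 each) were closest to BID, and TMX4 and ALDH5A1 (r = 0.99 each) to HRK. These are the highest of 15860 genes, and the libraries share their groups and depths.

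BCL10 acts upstream of NF-kB, so the promoters (RefSeq, GRCh38.p14, 250 bases before to 50 after the start) were searched for the NF-kB consensus motif on both strands. Promoters were found for 9 of the 10 genes, all but BIK. At least 1 promoter of a gene held the motif in 1 member, BMF, beside 5.91% of 35116 promoters. HRK and BCL2L11, whose falls also passed with R58Q, did not hold it in these windows. The 60 bases around the BMF match are shown as the only match among the members. Capitals mark the motif, 20 to 11 bases before the RefSeq start, and the motif reads on the strand opposite to the gene. The 60 bases lie at chr15:40108880-40108939 (gene on the minus strand). The gene position given above for BMF reaches 40108892, inside these 60 bases, so its start is not the RefSeq start.
BMF: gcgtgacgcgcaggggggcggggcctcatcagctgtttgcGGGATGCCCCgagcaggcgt

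Other short motifs, searched on both strands, were GGGCGG in 8 members (45% of all promoters), CCAAT in 6 (34.6%), CACGTG in 3 (BBC3, BID and BAX, 7.26%) and TATAAA in 0 (11.5%). A gene counted if any of its listed promoters held the motif, among the 9 members with a promoter. The shares count each promoter singly, so a gene with several promoters had more chances to count. Numbers of members and shares are therefore not on the same unit, which holds for the NF-kB motif too. PMAIP1 and HRK, which moved in opposite directions, both held GGGCGG and none of the other motifs.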

How the data were processed

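Poly(A) RNA libraries of 9 RIVA samples were sequenced across 2 runs, which the authors combined; the submitters' notes name STAR, Picard, cutadapt and hg38, and the counting program and its strand setting are not given in the sources used here. The authors deposited raw read counts per gene, used here, and beside them a normalized signal equal to the counts over 1 factor per library, not used in any result. Library totals were 28047713 to 33122267, and no pair of replicates was as alike as counting error alone would make them (chi-square over degrees of freedom, 7.91 to 25.6).

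Each comparison used its 6 libraries in edgeR 4.0.16 (R 4.3.3): filterByExpr (minimum count 10, minimum total 15), TMM scaling, the quasi-likelihood F test and Benjamini-Hochberg adjustment over all genes. Calls needed a change of 1.5-fold or more and an adjusted p below 0.05, and calls with no fold minimum are given beside it. All 10 members passed the filter. Intervals are 95% intervals of the fit, with standard errors of the log2 fold change, and cover the spread between these libraries, which the study calls biologic replicates. Levels are CPM with TMM factors over all 9 libraries, per kb of GENCODE 29 union exons for comparisons between genes. Of the gene identifiers 96.3% had a length. The deposited positions of PMAIP1, BCL2L11 and BIK differ from those in GENCODE 29. The lengths used for these genes may therefore not match the gene models that were counted. The scripts were tested on simulated data.

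Every member is named. From the other lists, genes called in both mutants are named, at most 4 by mean size. Added after their values were seen were MCL1, BCL2, BCL2L13, VDAC2, YWHAG, DYNLL1, JUN, FOXO1, FOXO3, FOXO4, ATF4, BTG2 and DDB2. So were the overlapping or similar genes MIR4435-2HG, GPR137 and BAK1P1, and the cell type markers given by name. For members called, the 2 genes of highest Pearson r of log2 CPM (prior count 2) are named. The list of genes acting after mitochondrial release is not reported here. The members and lists were chosen with earlier results of these data known.

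Replicate numbers were taken to pair libraries because all 9 correlations of same-number deviations exceeded 0.1 (0.143 to 0.626). The median of other pairs was -0.251, which is not separate evidence, since deviations from a group mean cancel within the group. The main fits do not use the pairing, and of the alternatives only the replicate block does. Alternatives were DESeq2 1.42.0, limma-voom (limma 3.58.1), upper-quartile and total-count scaling, no filter, a minimum of 10 counts in each library, protein-coding genes only, all 9 libraries in one fit, the replicate block, each library left out, other thresholds, and the longest transcript as length.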

Additional observations from a re-analysis of the deposited data

How the results depend on the processing

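For 30 pairs of a member and a comparison, 17 alternative settings each gave 510 values. Of these 478 kept their direction and side of the threshold and 24 changed sign. The settings that changed only a threshold used the main fold changes, so their values could not change sign. Of the 24 sign changes 0 were in a pair past the test, and the smallest adjusted p among them was 0.589 (edgeR). The number of members called was 2 to 4 with S136X, 2 to 5 with R58Q and 0 between the mutants over all settings; with no fold minimum it was 5 with R58Q. The replicate block, which pairs libraries by number, changed no member's call at 1.5-fold and brought PMAIP1 and BMF past the p threshold between the mutants (0.19 and -0.35 on the log2 scale). An adjusted p under 0.01 removed HRK in both comparisons with vector.

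All sign changes were in values that did not pass the test, the largest at 0.232 on the log2 scale (BIK with S136X). With S136X, BAD was -0.00708 under upper-quartile scaling and -0.0236 under total counts, and between the mutants BID was -0.0130 under upper-quartile scaling and -0.00312 with protein-coding genes only; the cause was not tested. Leaving out 1 library, log2 fold changes with S136X ranged from -0.125 to 0.0497 for BBC3, -0.0432 to 0.119 for BAD, -0.579 to 0.232 for BIK and -0.233 to 0.000231 for BMF. With R58Q they ranged from -0.00338 to 0.162 for BAD and -0.191 to 0.545 for BIK. Between the mutants they ranged from -0.142 to 0.0178 for BBC3, -0.0348 to 0.0712 for BID, -0.00124 to 0.0746 for BAD, -0.0845 to 0.743 for BIK, -0.119 to 0.438 for HRK, -0.0919 to 0.0152 for BAX and -0.0681 to 0.0321 for BAK1.

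Per kb of the longest transcript, vector levels were 302.6 CPM for PMAIP1, 62.7 for BMF, 59.8 for BCL2L11, 56.7 for BAX, 30.4 for BID, 22.2 for BAD and 4.99 for BBC3, so BAD passes BAK1.

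Over all genes, calls with S136X were 601, but 934 with no filter, 1014 with the block, 1574 with no fold minimum, 262 at an adjusted p under 0.01, 279 without vector replicate 2 and 349 without S136X replicate 3. With R58Q they were 1178, but 3243 with no fold minimum, 596 at 0.01, 719 without vector replicate 2 and 778 without R58Q replicate 3. Between the mutants they were 66, but 149 in DESeq2, 165 with no filter, 33 with protein-coding genes only, 114 with all 9 libraries in one fit, 446 with the block, 15 at 0.01, and 5 to 40 in the fits without 1 library that moved most. With 3 libraries a group, small differences may have been missed, and in BIK all but large ones. Power was not calculated, and the 1.33-fold fall of BCL2L11 with R58Q did pass the p threshold.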
